A study of Mus musculus and Homo sapiens with 41 samples.

Results

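The genes described here are those measured in 416b cells by RNA-seq, compared between cells given PLZF and cells given an empty vector. Of the 13238 entries in the 416b expression table, 1 carried no gene name and 1402 named genes had a mean below 10 normalized counts over the 2 libraries, which left 11835 genes. These 2 samples belong to a series of 41 samples on PLZF in myeloid progenitors, which also holds chromatin assays not analysed here and RNA-seq of granulocyte-monocyte progenitors (GMPs) of WT and Zbtb16lu/lu C57BL/6 marrow, taken from irradiated mice after transplantation. The 416b line was derived from mouse bone marrow progenitors and is labelled Cd34-positive. Both populations were transduced with lentivirus, PLZF-FLAG-GFP in one case and empty-FLAG-GFP in the other, and GFP-positive cells were sorted 48 h later. Each condition was sequenced in 1 library, from cDNA made by a method that does not keep strand. Reads of overlapping genes on opposite strands therefore cannot be told apart, and no test between conditions was possible.

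PLZF, the product of Zbtb16, is a transcription factor with a BTB domain that recruits corepressor complexes and zinc fingers that bind DNA. It is known for its part in keeping blood and germline stem cells, in the innate-like programme of natural killer T cells, and as a fusion partner of the retinoic acid receptor in acute promyelocytic leukaemia. In interferon signalling it has also been described as an activator of a subset of antiviral genes.

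Promoter sequences of the genes on which the results turn are shown first. Each covers 250 bases before to 50 bases after the annotated start, was taken from RefSeq (GRCm38.p6, the same genome as mm10) and reads 5′ to 3′ on the strand of the gene. Muc1 (chr3:89228806-89229105, plus strand) is shown as the gene with the highest ratio and Sgsh (chr11:119355461-119355760, minus strand) because its window also holds the start of Slc26a11, which is read in the opposite direction.
Muc1: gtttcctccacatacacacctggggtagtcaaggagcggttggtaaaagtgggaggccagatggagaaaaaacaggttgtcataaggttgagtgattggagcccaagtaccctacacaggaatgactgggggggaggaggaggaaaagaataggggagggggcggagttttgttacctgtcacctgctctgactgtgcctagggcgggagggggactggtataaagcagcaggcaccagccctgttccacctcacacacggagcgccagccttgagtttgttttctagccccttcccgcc
Sgsh: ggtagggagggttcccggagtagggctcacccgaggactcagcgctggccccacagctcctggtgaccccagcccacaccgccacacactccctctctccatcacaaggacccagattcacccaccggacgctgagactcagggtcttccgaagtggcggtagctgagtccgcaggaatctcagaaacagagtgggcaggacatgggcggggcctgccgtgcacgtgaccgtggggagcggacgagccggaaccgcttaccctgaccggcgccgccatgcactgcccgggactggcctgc
Interferon-stimulated genes carry a response element built from a pair of GAAA half-sites, so the letters GAAANNGAAA were searched on both strands, and their matches are in capitals below. Slfn5 (chr11:82951852-82952151, plus strand), Oas3 (chr5:120777610-120777909, minus strand) and Oas1g (chr5:120887564-120887863, minus strand) are genes of that list with lower values in PLZF-Flag, while Igtp (chr11:58199306-58199605, plus strand) and Gbp7 (chr3:142530086-142530385, plus strand) had nearly equal values in both libraries. The matches in Oas1g overlap each other.
Slfn5: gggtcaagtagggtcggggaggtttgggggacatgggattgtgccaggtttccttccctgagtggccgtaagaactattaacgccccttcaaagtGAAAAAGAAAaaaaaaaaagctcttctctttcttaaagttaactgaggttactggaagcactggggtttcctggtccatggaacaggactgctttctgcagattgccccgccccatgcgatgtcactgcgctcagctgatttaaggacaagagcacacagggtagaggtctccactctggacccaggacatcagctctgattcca
Oas3: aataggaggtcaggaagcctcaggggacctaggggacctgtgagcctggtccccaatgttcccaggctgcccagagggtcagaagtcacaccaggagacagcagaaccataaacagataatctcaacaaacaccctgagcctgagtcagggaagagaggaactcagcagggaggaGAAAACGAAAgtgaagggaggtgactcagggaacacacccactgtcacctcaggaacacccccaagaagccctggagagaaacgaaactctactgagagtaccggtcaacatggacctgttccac
Oas1g: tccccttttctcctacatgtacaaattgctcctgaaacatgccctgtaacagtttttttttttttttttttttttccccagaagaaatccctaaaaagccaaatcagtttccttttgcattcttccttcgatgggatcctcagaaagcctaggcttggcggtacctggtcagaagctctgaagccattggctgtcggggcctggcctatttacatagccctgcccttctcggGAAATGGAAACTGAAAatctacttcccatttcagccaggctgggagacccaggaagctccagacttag
Igtp: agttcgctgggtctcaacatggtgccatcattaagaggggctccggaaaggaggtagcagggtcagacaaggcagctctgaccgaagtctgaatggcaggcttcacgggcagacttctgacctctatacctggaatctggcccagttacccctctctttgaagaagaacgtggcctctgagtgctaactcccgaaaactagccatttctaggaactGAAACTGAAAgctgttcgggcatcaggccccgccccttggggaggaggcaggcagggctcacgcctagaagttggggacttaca
Gbp7: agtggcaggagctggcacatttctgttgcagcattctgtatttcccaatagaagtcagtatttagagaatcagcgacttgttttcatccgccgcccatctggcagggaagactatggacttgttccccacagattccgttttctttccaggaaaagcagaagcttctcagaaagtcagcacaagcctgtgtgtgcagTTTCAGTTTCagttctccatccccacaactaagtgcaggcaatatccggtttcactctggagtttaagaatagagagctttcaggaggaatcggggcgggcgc
Epor (chr9:21963527-21963826, minus strand) stands for the erythroid genes, with the letters AGATAA bound by GATA factors, read on the other strand, in capitals.
Epor: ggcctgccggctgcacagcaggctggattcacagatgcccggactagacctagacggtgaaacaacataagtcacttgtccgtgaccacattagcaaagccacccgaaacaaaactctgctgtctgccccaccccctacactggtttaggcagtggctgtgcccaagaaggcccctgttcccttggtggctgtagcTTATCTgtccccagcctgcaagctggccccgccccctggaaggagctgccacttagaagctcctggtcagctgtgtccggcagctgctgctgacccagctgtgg

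The values are normalized counts, that is reads divided by a size factor for each library. The value of 1 read was 0.605 in Empty vector and 1.65 in PLZF-Flag, so reads could be recovered; they summed to 54529234 and 19995668 on the named genes. Among progenitor genes, Cd34 had 11059 normalized counts in Empty vector and 8823 in PLZF-Flag, Kit 6434 and 7267, Gata2 12441 and 14121, and Spi1 5298 and 5694. These defining genes of immature myeloid cells were present in both libraries, and Elane and Flt3 were the only genes of the 25 on that list that were not in the table. Mpo, a primary granule enzyme, had 12.1 and 3.30. Of 15 markers of T and NK cells 6 were listed, of 10 B cell markers 2 and of 14 stromal markers 5, and Cd3e and Col1a1 were not listed. Of the stromal markers, Vim (8546 and 7504), Sparc (6579 and 7563) and Pecam1 (5833 and 5952) had levels like those of Kit and Spi1. Cdh5 (5.45 and 4.96) and Kdr (2.42 and 4.96) were low. Of 5 T and NK markers with a mean of at least 10, 4 were higher in PLZF-Flag and 1 lower. They included Gzmb (6.66 and 23.1), Lck (64.4 and 109) and Klrb1c (145 and 119).

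The response was small for most genes. Ratios of PLZF-Flag over Empty vector on the log2 scale, computed after adding 1 to each value, had a median near 0 and an SD of 0.27 across the 11835 genes, and 95.2% of genes lay within 1.5-fold of equality. At 2-fold or more, 59 genes were higher (0.499%) and 108 were lower (0.913%). Most of them were low in reads: 55 of the 59 and 97 of the 108 had a mean under 100 normalized counts. A 95% Clopper-Pearson interval, which is exact for binomial counts, was taken from the recovered reads. It lay wholly past 2-fold for 3 genes upward and for 7 genes downward. The interval lay above 0 for 1905 genes (16.1%) and below 0 for 1887 genes (15.9%). Intervals cover counting error only, and in bulk RNA fewer cells of a type and less RNA per cell cannot be told apart.

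The scatter of the ratios was wider than counting alone gives. Among the 2787 genes with a mean of at least 3000, the SD of the ratio was 0.10 where counting error would give 0.03, and among the 794 genes between 10 and 30 it was 0.72 against 0.56. An interval that leaves out 0 is thus no sign that a gene would differ between repeat cultures, above all for abundant genes. Among the 6386 genes with a mean of at least 1000, 1 gene was higher by 1.5-fold or more and 8 were lower.

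**Figure D1:**
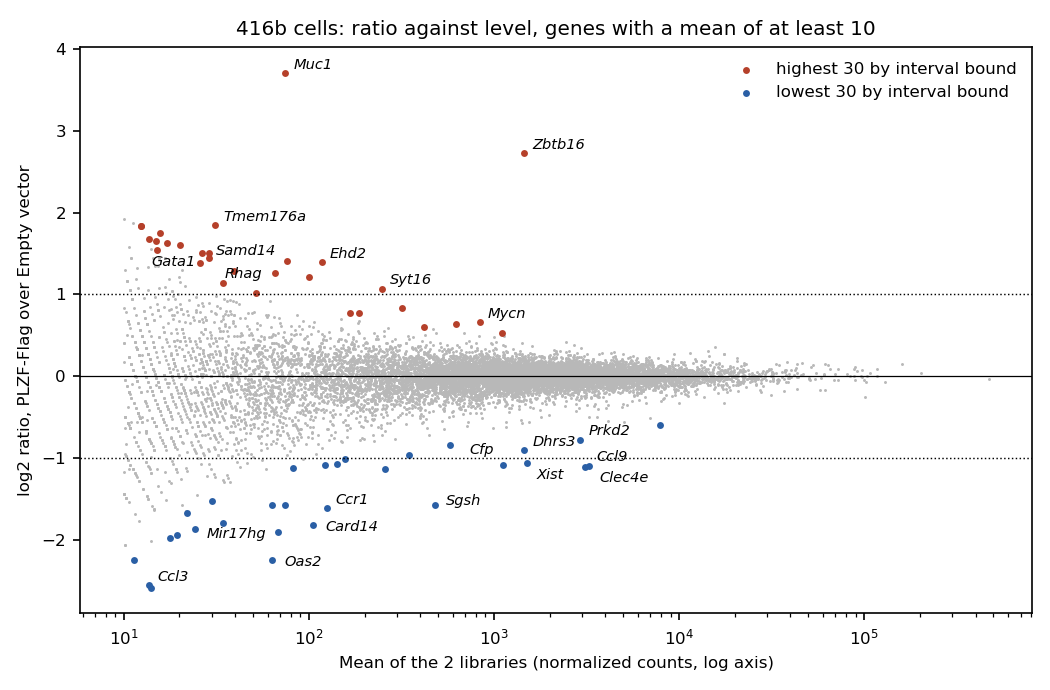
Each point is a gene averaging 10 or more normalized counts; the horizontal axis gives the mean of both libraries on a log scale and the vertical axis the log2 ratio of PLZF-Flag over Empty vector, with dotted lines at 2-fold. The 30 genes with the highest lower interval bound are red and the 30 with the lowest upper bound blue; Muc1 and Zbtb16 stand alone at the top, at 3.71 and 2.73.

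Zbtb16 had 382 normalized counts in Empty vector (632 reads) and 2541 in PLZF-Flag (1538 reads), a log2 ratio of 2.73 (95% interval 2.59 to 2.86) or 6.63-fold. The parental line already expressed the gene, so the comparison is of a low with a high level. Whether the PLZF of the vector is human or mouse is not given in the sources used here, so the part of these reads that came from the vector is not known. Muc1, a membrane mucin, had 9.68 and 139 normalized counts (16 and 84 reads), a log2 ratio of 3.71 (2.98 to 4.49). It had the highest ratio of all 11835 genes.

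The 30 genes with the highest lower bound had ratios from 0.52 to 3.71, and 23 of them were past 2-fold. Gata1, Rhag and Samd14, known from the erythroid line, were among them. Gata1, the master regulator of erythroid and megakaryocyte genes, had 15.1 and 43.0 normalized counts (25 and 26 reads; ratio 1.45, 0.63 to 2.26). Rhag, a Rhesus-associated channel of the red cell membrane, had 38.1 and 92.5 (63 and 56 reads; 1.26, 0.72 to 1.79). Samd14, which is needed for stress erythropoiesis, had 41.2 and 111 (68 and 67 reads; 1.41, 0.91 to 1.91). All 3 genes were about 2-fold to 3-fold higher, from low levels.

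Other genes of this set encode membrane, signalling and enzyme proteins. Ehd2, an ATPase of caveolae, had 64.2 and 170 normalized counts (ratio 1.39, 0.99 to 1.79), and Syt16, a synaptotagmin-like protein, had 159 and 335 (1.07, 0.80 to 1.34). Matk, a kinase that restrains Src family members, had 14.5 and 43.0 (24 and 26 reads), which is 2.83-fold more. Aldh1a1, which oxidizes retinaldehyde to retinoic acid, had 22.4 and 56.2 (1.29, 0.59 to 1.98). Serpina3g, a protease inhibitor of leukocytes, had 229 and 410 (0.83, 0.60 to 1.07), with close relatives from which its reads may not be fully separated. Mycn, a MYC family factor, had 648 and 1026 (0.66, 0.52 to 0.81), and Eya2, a transcriptional coactivator, had 484 and 757 (0.64, 0.48 to 0.81). Mycn and Eya2 had ratios below 2-fold but rested on many more reads than Gata1 or Matk.

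The 30 genes with the lowest upper bound had ratios from -2.58 to -0.60, and 25 of them were past 2-fold. Oas2, an antiviral oligoadenylate synthetase, had 105 and 21.5 normalized counts (174 and 13 reads; ratio -2.24, -3.13 to -1.46). Sgsh, the lysosomal sulfamidase that degrades heparan sulfate, had 721 and 241 (1191 and 146 reads; -1.58, -1.83 to -1.33). Card14, a scaffold that activates NF-kB, had 165 and 46.3 (273 and 28 reads; -1.81, -2.42 to -1.26). Mir17hg, the host transcript of the miR-17 cluster, had 108 and 28.1 (178 and 17 reads; -1.90, -2.68 to -1.20). These were, with Ccr1, Ccl9 and Clec4e, the 7 genes whose whole interval lay past 2-fold.

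Chemokine, innate receptor, complement and lysozyme genes were among the lower 30. Ccl9, a chemokine of myeloid cells, had 4272 normalized counts in Empty vector and 1976 in PLZF-Flag (ratio -1.11, -1.20 to -1.02). Clec4e, the Mincle receptor for microbial and necrotic cell ligands, had 4429 and 2075 (-1.09, -1.18 to -1.01). Cfp, which is properdin of the alternative complement pathway, had 1523 and 719 (-1.08, -1.23 to -0.93). Ccl9 and Clec4e were the 2 genes with a mean of at least 3000 that were past 2-fold. Lyz1, a lysozyme, had 53.9 and 14.9 (-1.79, -2.86 to -0.84), and its near copy Lyz2 had 553 and 335 (-0.72, -0.94 to -0.50). Reads shared by both lysozyme genes may have been split between them.

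Outside this group, Abcg2, an efflux pump of stem cells, had 356 and 162 normalized counts (ratio -1.13, -1.45 to -0.82). Dhrs3, which reduces retinaldehyde and so opposes retinoic acid formation, had 1903 and 1020 (-0.90, -1.03 to -0.77). Prkd2, a protein kinase D, had 3692 and 2158 (-0.77, -0.86 to -0.69). Prkab2, a regulatory subunit of AMP-activated kinase, had 113 and 51.2 (-1.12, -1.71 to -0.57). Dhrs3 and Aldh1a1, which act on the same substrate, thus lay on opposite sides of 0.

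**Figure D2:**
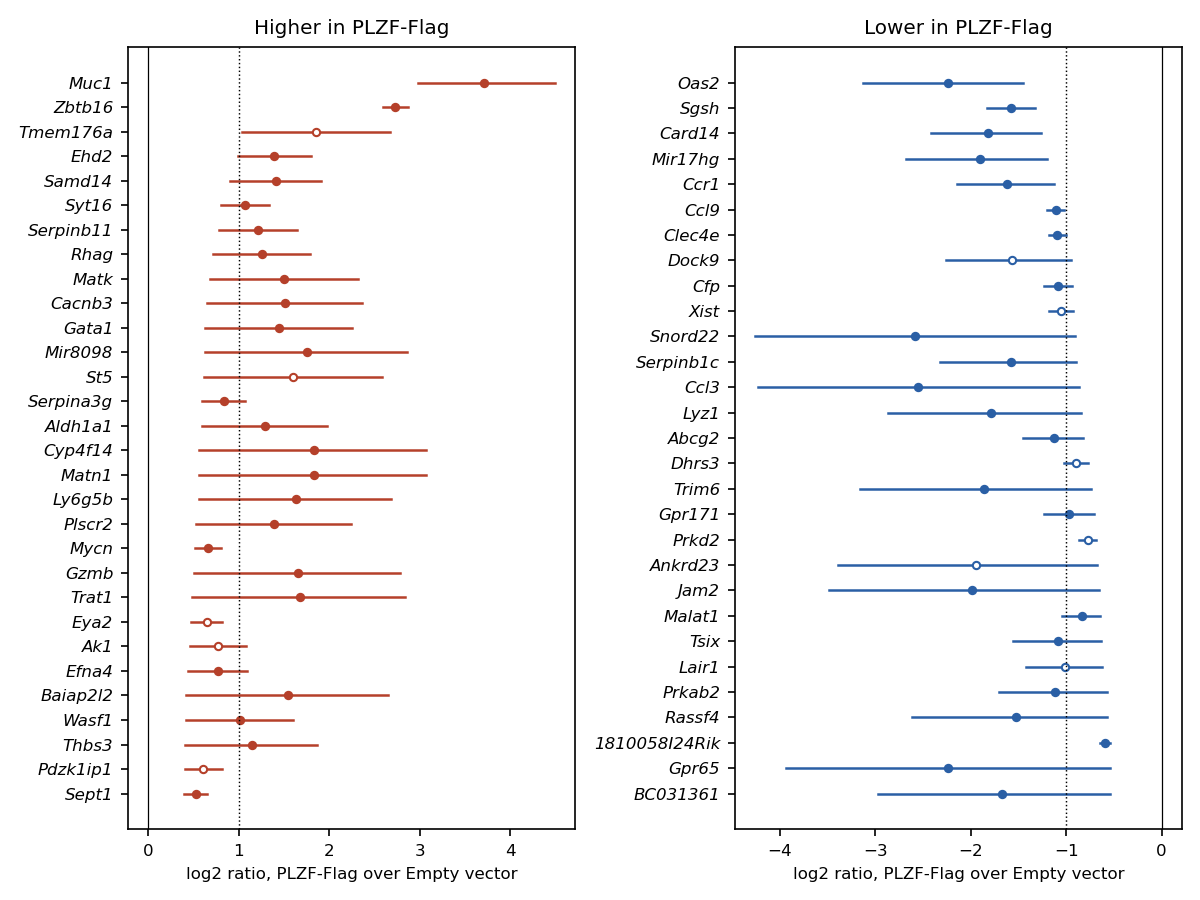
Log2 ratios of PLZF-Flag over Empty vector for the 30 genes with the highest lower bound (left, red) and for 29 of the 30 with the lowest upper bound (right, blue), with 95% exact binomial intervals and dotted lines at 2-fold. Open points are genes with a fraction of a read in at least 1 library (5 on the left, 6 on the right); among the lower genes the interval is narrow for Ccl9 and Clec4e and wide for Snord22, Ccl3 and Gpr65.

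Gene lists gave the wider pattern. Of 19 genes on the chemokine and chemokine receptor list, 6 were lower by 2-fold or more, 11 had an interval below 0 and 0 had one above 0, with a median ratio of -0.58. Over all 11835 genes, 0.913% were lower by 2-fold, 15.9% had an interval below 0 and 16.1% one above 0, and the median was near 0. The counts of each list below stand against these shares. Intervals narrow as reads rise, so a list of abundant genes can exceed the interval shares without a common shift. Besides Ccl9, the 2-fold genes included the chemokines Ccl3 (24.2 and 3.30 normalized counts, 40 and 2 reads; ratio -2.55) and Ccl5 (53.9 and 21.5; -1.29), and the receptor Ccr1 (189 and 61.1; -1.62). Gpr65 (19.4 and 3.30, 32 and 2 reads, ratio -2.24) was counted among the 6, though it is a proton sensor and no chemokine receptor. It was also among the 30 most strongly lower genes, and the list was written with earlier results of these data known. The counts without it were not computed. Cxcr2, the neutrophil chemokine receptor, had 8053 and 8313 (0.05). Among the members averaging 100 or more, Ccr1 and Ccl9 carried the strongest ratios, so the pattern did not rest on genes of few reads alone.

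Of 61 interferon-stimulated genes, 35 had an interval below 0 (15.9% over all genes) and 1 had one above 0 (16.1%), and the median ratio was -0.27. Ratios were below 0 for 51 members and above 0 for 10. Oas2 alone was past 2-fold. Ifi27l2a, an interferon-inducible mitochondrial protein, had 153 and 82.6 normalized counts (ratio -0.88, -1.34 to -0.44). Irf7, the transcription factor that amplifies type I interferon, had 202 and 120 (-0.74, -1.13 to -0.38), and Xaf1, a promoter of apoptosis, had 366 and 216 (-0.76, -1.05 to -0.49). Irf9, the DNA-binding part of the factor that type I interferon activates, had 751 and 569 (-0.40, -0.58 to -0.23). Other members showed nearly equal values, such as Igtp (350 and 360; 0.04), Gbp7 (613 and 651; 0.09), Bst2 (3729 and 3756; 0.01) and Ly6e (22010 and 22260; 0.02). Isg20, an exonuclease, was the single member whose interval lay above 0, with 214 and 322 (0.59, 0.33 to 0.84).

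Of the 61 genes, 48 had a promoter in the RefSeq table used here, and 24 of these (50%) held GAAANNGAAA on either strand, against 3.49% of 27025 promoters of the same length. The share was the same among the genes with an interval below 0 (12 of 24) as among the others (12 of 24). Slfn5 and Oas3 in the first group and Igtp and Gbp7 in the second show that genes with a match differed in their ratios. Of the 30 most strongly lower genes, 23 had a promoter in the table and 0 held the letters. Oas2, the interferon-stimulated gene among the 30, was not in the promoter table.

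Antigen presentation genes were mostly lower as well, with 10 of 18 intervals below 0, 1 above 0 and a median of -0.17. The one past 2-fold was higher, namely H2-Aa, a class II chain, at 7.26 and 19.8 normalized counts (12 reads in each library; ratio 1.33, 0.15 to 2.48). Nlrc5, the transactivator of class I genes, had 507 and 352 normalized counts (ratio -0.52), and B2m, the shared light chain, had 33820 and 28854 (-0.23, -0.25 to -0.20). Of 15 granulocyte genes, 5 had an interval below 0 and 1 above 0, with a median of -0.08. Ratios were above 0 for 7 and below 0 for 8, and 1 member was higher and 1 lower by 2-fold or more. Besides the lysozymes, Itgam, the integrin chain CD11b, had 6023 and 4081 (-0.56, -0.63 to -0.50), and Ctsg, a primary granule protease, had 2318 and 1676 (-0.47, -0.57 to -0.37). The NADPH oxidase subunit Ncf4 had 2082 and 2084 (0.00). The 14 monocyte and macrophage genes had a median of -0.01, with Ccr2 at 144 and 81.0 (-0.82) and Cd14 at 953 and 1056 (0.15).

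Erythroid genes went the other way: of 19 members, 12 had an interval above 0 and 2 below 0, and the median was 0.27. Besides Gata1 and Rhag, Epor, the erythropoietin receptor, had 347 and 426 normalized counts (ratio 0.29, 0.08 to 0.51), and Zfpm1, the GATA1 cofactor FOG1, had 12823 and 15898 (0.31, 0.28 to 0.34). The adult beta-globin gene Hbb-bt had 15941 and 19260 (0.27). Hbb-b2 carried the identical values, and Hbb-bs and Hbb-b1 shared another pair of values, so these 4 names stand for 2 measurements. Tfrc, the transferrin receptor, had 9178 and 7851 (-0.23). The letters AGATAA, chosen after the values were seen, were in 5 of 15 erythroid promoters, against 11.4% of all promoters of that length and 6.35% of those of genes measured here. They were also in 5 of 24 promoters of interferon-stimulated genes with an interval below 0 and in 0 of 24 of the others, 10.4% over that list. Among the 30 most strongly higher genes 2 of 22 promoters held them, and among the 30 most strongly lower 1 of 23. Of 25 megakaryocyte genes, 6 intervals lay above 0 and 6 below, with Pf4 at -0.20 and Rab27b at 0.40.

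**Figure D3:**
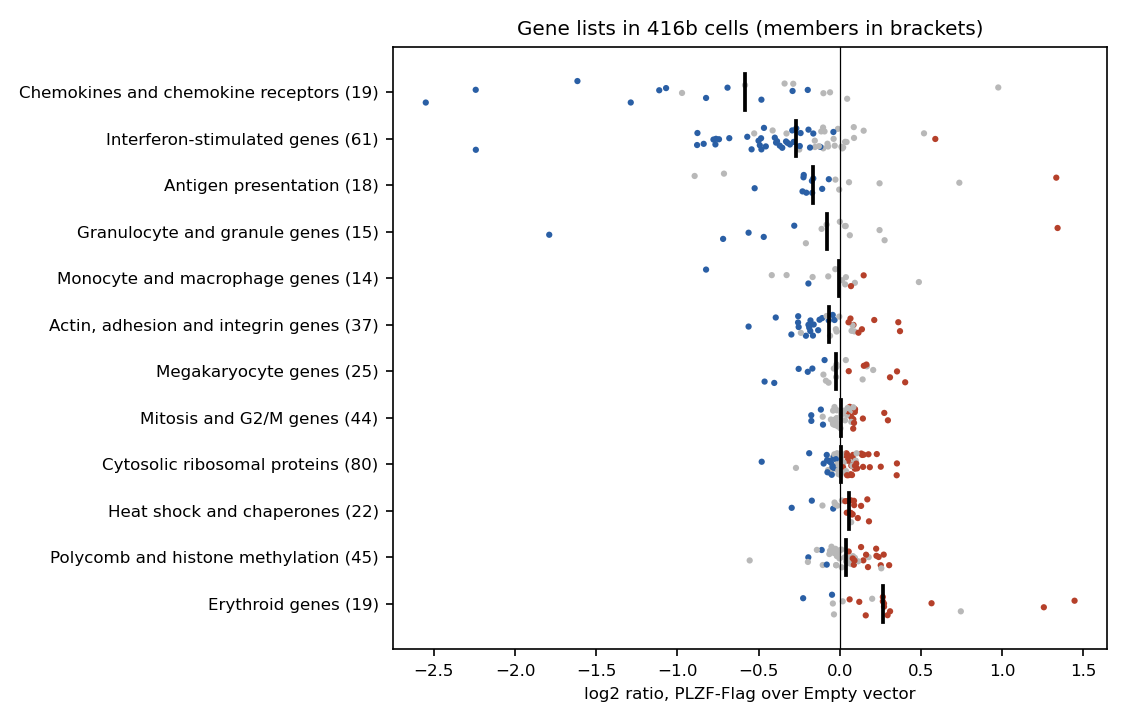
Log2 ratios of PLZF-Flag over Empty vector for the members of 12 gene lists; each point is a gene, red where its 95% interval lies above 0, blue where it lies below 0 and grey where it holds 0, and the black bar is the list median. Chemokine genes (median -0.58) and interferon-stimulated genes (-0.27) lie left of 0, erythroid genes (0.27) lie right of it, and mitosis genes and ribosomal proteins (both 0.01) are centred on 0.

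Proliferation genes showed no common shift. The 44 mitosis genes had a median of 0.01, with 13 intervals above 0 and 5 below, and the 48 DNA replication genes a median of 0.00, with 13 above and 11 below. Mki67, the proliferation antigen, had 8457 and 10230 normalized counts (ratio 0.27). The 80 cytosolic ribosomal protein genes had a median of 0.01, with 28 intervals above 0 and 21 below. Actb, often used as a reference gene, had 110083 and 92194 (-0.26), and Hprt had 9759 and 9100 (-0.10).

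Some of the strongest genes lay side by side in the genome. Neighbours starting within 250 kb were examined after the values had been seen. Card14, Sgsh and Slc26a11 follow each other on chromosome 11 of mm10 (119307093 to 119345379, 119343489 to 119355510 and 119355509 to 119381076). Slc26a11, an anion transporter, had 25.4 and 9.91 normalized counts (42 and 6 reads; ratio -1.28, -2.59 to -0.11). Their nearest measured neighbours outside were at 0.04 (Eif4a3) and 0.00 (Endov), so 3 adjacent genes were each lower by more than 2-fold. Card14 and Sgsh overlap by 1891 bases, and without strand a part of their reads cannot be assigned to one or the other.

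On chromosome 9 the receptor genes Ccr1, Ccr1l1, Ccr3 and Ccr2 had ratios of -1.62, -1.29, -0.97 and -0.82. The intervals of Ccr1l1 and Ccr3 held 0, and Fyco1 beside them was at -0.12. On chromosome 5 Oas2 was followed by Oas3 (-0.54), Oas1c (-0.33), Oas1b (-0.77), Oas1g (-0.48) and Oas1a (-0.24), with ratios below 0 throughout. The interval of Oas1c held 0, and Oas1b rested on 94 and 20 reads (-1.51 to -0.07). These genes are similar in sequence, which limits how well their reads are separated.

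Around Muc1 on chromosome 3, Thbs3, a thrombospondin that ends 2214 bases before it, had 21.2 and 47.9 normalized counts (ratio 1.14, 0.40 to 1.87), and Efna4, an ephrin, had 123 and 212 (0.77, 0.44 to 1.10). Trim46, on the other side of Muc1, was at -0.19 and Krtcap2 at -0.13, so genes with a higher value were interspersed with others. On chromosome 6, Tmem176a (21.5 and 30 reads; 1.85, 1.04 to 2.67) and its overlapping partner Tmem176b (0.71) lay next to the immune GTPases Gimap9 (0.37), Gimap6 (0.43), Gimap1 (0.23) and Gimap5 (0.53), whose intervals were all above 0. The intervals of Gimap8 (0.36), Gimap4 (0.03) and Gimap3 (0.73) in the same cluster held 0.

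**Figure D4:**
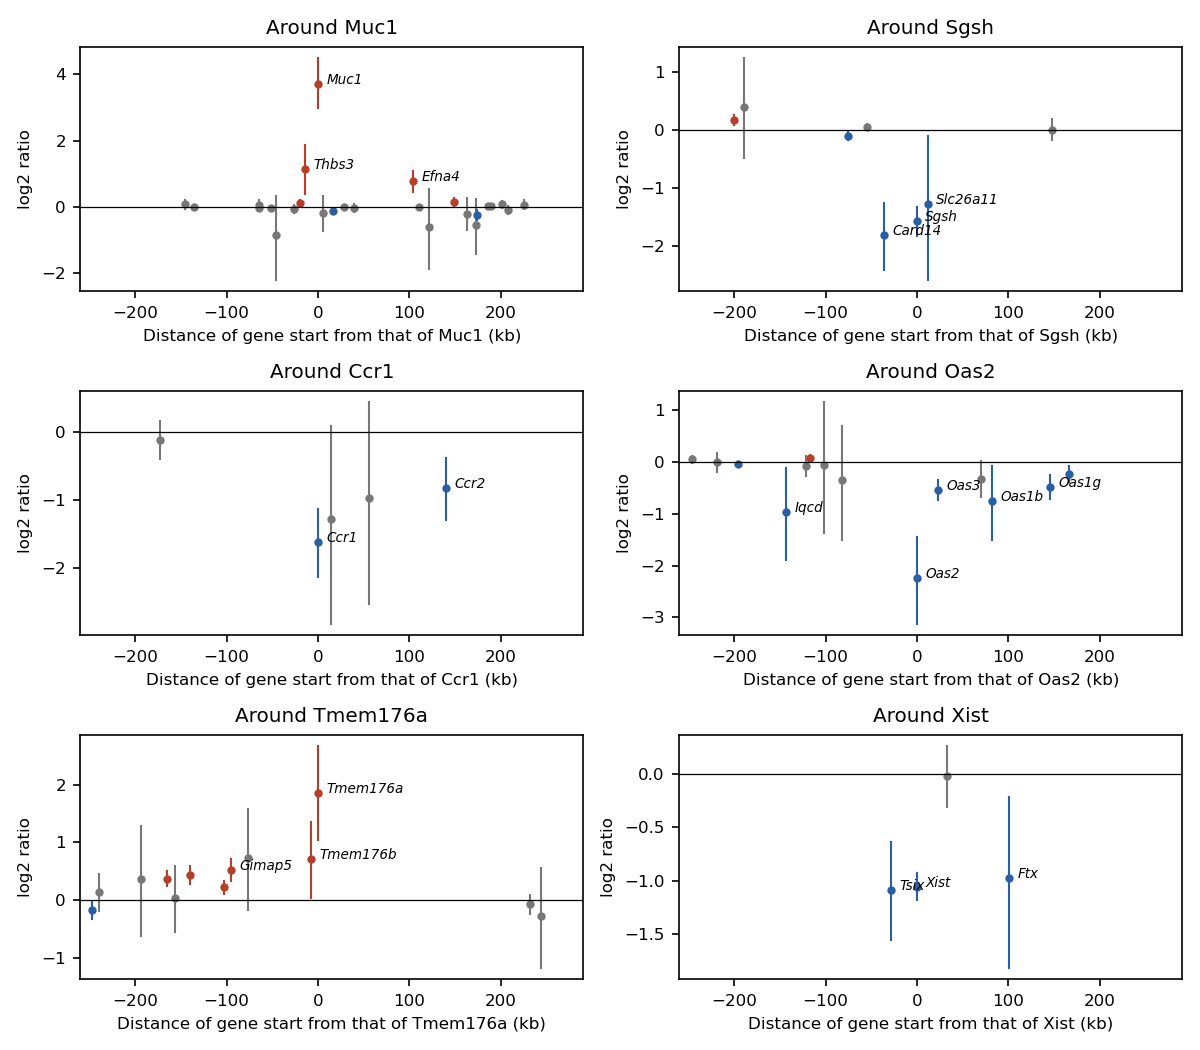
PLZF-Flag over Empty vector log2 ratio, with its 95% interval, for genes reported here that start within 250 kb of 6 of the strongest genes; the horizontal axis is the distance between gene starts in kb, and red, blue and grey mark intervals above, below and across 0. Sgsh, Card14 and Slc26a11 lie together below -1 between neighbours near 0, and Ccr1, Ccr1l1, Ccr3 and Ccr2 all lie below 0.

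No whole chromosome was shifted. For genes averaging 100 or more, the medians of 20 chromosomes ran from -0.02 on chromosome 1 to 0.02 on chromosome 7. Some long noncoding nuclear RNAs, picked after the values were seen, were among the lower genes. Xist, the RNA that silences an X chromosome, had 2029 and 975 normalized counts (ratio -1.06, -1.19 to -0.93), while its antisense Tsix, which overlaps it by 22861 bases, had 166 and 77.7 (-1.08). Near Xist, Jpx had 229 and 226 (-0.02) and Ftx 51.4 and 25.6 (-0.98, -1.82 to -0.21). The X chromosome median was -0.01. Malat1, an abundant speckle RNA, had 746 and 416 (-0.84, -1.04 to -0.64), and Neat1, the paraspeckle RNA, had 249 and 191 (-0.38, -0.69 to -0.08). The RNase P RNA Rpph1, a short RNA without a poly(A) tail, had 107 and 20 reads (-0.95). How far the cDNA method used for 416b cells captured such RNAs was not tested. Over all 487 long noncoding RNAs the median was -0.04, with 16 lower and 6 higher by 2-fold or more.

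Active enhancers that lose H3K27ac and are bound by PLZF in these cells were assigned to genes by the study, and 795 of those genes were among the 11835 (6.72%). The assignment used chromatin data of the same cells. Of the 30 most strongly lower genes, 5 were on that list, namely Sgsh, Ccl9, Dhrs3, Gpr171 and Prkd2, and of the 30 most strongly higher genes 0 were. Gpr171, an orphan receptor, had 460 and 235 normalized counts (ratio -0.97, -1.24 to -0.71). Armc3, Clstn3, Slc26a11 and Ccl5 were the other genes of the list past 2-fold besides Sgsh and Ccl9, all lower, so that 6 of 795 were lower by 2-fold and 0 higher, against 0.913% and 0.499% of all genes. The share of lower genes was thus near that of all genes, and the interval of Clstn3 held 0. The study itself reported both higher and lower expression for the whole list. Its statement of lower expression concerned the genes with strong PLZF binding and used no 2-fold cut, and that subset was not examined here.

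The strongest genes were then read in other cells, where PLZF was lost. GMPs were purified from primary grafts of WT mice and of Zbtb16lu/lu mice, whose luxoid mutation inactivates PLZF. The labels give 1 sample per genotype, and the table holds 2 columns for each. The methods state 3 independent RNA extractions, so the columns used here are fewer, and whether the columns are separate animals is not given in the sources used here. These libraries were made from ribosome-depleted stranded RNA and normalized apart from 416b cells, so levels are compared only within GMPs. Zbtb16 had 828 and 705 normalized counts in WT against 269 and 369 in Zbtb16lu/lu. Of 11189 genes of the 416b set with a GMP mean of at least 10, both Zbtb16lu/lu columns were above both WT columns for 21.5% and below them for 25.4%.

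Of the 30 genes most strongly lower in 416b cells, 29 had such a mean in GMPs; 12 of them were above WT in both Zbtb16lu/lu columns and 2 were below. Their median log2 difference, Zbtb16lu/lu minus WT, was 0.22, against -0.02 for all 11189 genes. It was 0.42 over the column of each genotype whose names share a number and 0.15 over the other columns. Among the wider sets past 2-fold, 28 of the 79 lower genes read in GMPs were above WT in both columns and 9 below (median 0.17), and 13 of the 38 higher genes were above and 5 below (median 0.24). The sets past 2-fold thus both had medians above 0, whichever way they lay in 416b cells. Sgsh had 433 and 282 normalized counts in WT against 781 and 826 in Zbtb16lu/lu, 2.29-fold more. Card14 had 87.8 and 73.6 against 206 and 187, 2.42-fold more. The pair that was lower with PLZF gain in 416b cells was thus higher in both columns with PLZF loss in GMPs. Cfp had 2378 and 2338 in WT against 4106 and 3892, a log2 difference of 0.76, and Ccl9 had 8881 and 5678 against 12815 and 10753 (0.73). Lyz1 had 197 and 172 against 368 and 299 (0.85), and Dhrs3 had 806 and 608 against 1136 and 1123 (0.69). Dock9, Trim6, Prkd2, Lair1, Prkab2 and 1810058I24Rik were the other 6, with differences from 0.08 to 0.61.

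Granulocyte and monocyte genes mostly lay higher in the Zbtb16lu/lu columns as well. Of 29 granulocyte genes read in GMPs, 19 were above WT in both columns and 1 below, with a median difference of 0.37 and sums of 786485 and 811719 normalized counts in WT against 930635 and 898193. Primary granule genes are part of that list, so its counts and sums do not measure maturation. Ctsg had 115134 and 107666 in WT against 126403 and 114694. Ms4a3 was lower in both Zbtb16lu/lu columns, with 40884.9 and 40959.5 in WT against 37996.3 and 33122.5. Of 25 monocyte and macrophage genes, 16 were above and 1 below (median 0.35), with sums of 81043 and 70011 against 98590 and 92545. Mmp9, a gelatinase of late granules, had 0 and 15.9 in WT against 76.3 and 65.8, and Irf8, a monocyte lineage factor, had 9305 and 9786 against 14277 and 13887. Of 28 megakaryocyte genes 1 was above and 4 below (median -0.63), with sums of 25150 and 15502 against 18039 and 14502. Columns of the same genotype differed in these genes, since Pf4, a platelet chemokine, had 1306 and 216 in WT against 486 and 96.6. Rpph1, a short RNA without a poly(A) tail, had 36481 and 92581 against 165632 and 142072. Rmrp, another such RNA, and the histone genes Hist2h2aa2 and Hist1h2ag were likewise higher in both Zbtb16lu/lu columns (1.09, 1.81 and 1.04). The part of these shifts in the differences of single genes was not tested.

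Not every gene showed opposite signs. Ccr1 had 146 and 175 in WT against 116 and 120 in Zbtb16lu/lu, a difference of -0.43, and Mir17hg was also lower in both Zbtb16lu/lu columns (-0.27). Clec4e overlapped between genotypes, with 1196 and 828 against 1196 and 864. Oas2 had 11.6 and 39.8 against 24.1 and 33.9, which also overlap. Over the 61 interferon-stimulated genes, 18 were above WT in both Zbtb16lu/lu columns (29.5%, against 21.5% of all genes) and 2 below, and their median difference was 0.12. Of 15 genes of the chemokine list, Gpr65 among them, 3 were above (20%) and 1 below, with a median of 0.02. Both lists were limited to members measured in 416b cells. Of the 17 erythroid genes of that kind 2 were above and 3 below, with a median of -0.12, and over all 31 erythroid genes read in GMPs 3 were above and 3 below, with a median of 0.16, so no direction can be read.

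For the 30 genes most strongly higher in 416b cells, 20 had a GMP mean of at least 10, and 5 of them were above WT in both Zbtb16lu/lu columns and 4 below, near the shares of all genes. Gata1 had 213 and 214 in WT against 212 and 119 (-0.42), and Serpina3g had 1543 and 1781 against 1056 and 1022 (-0.67). Matk went the other way, with 1725 and 1699 against 2908 and 2719 (0.72). Muc1 had 0 and 18.9 in WT against 1.00 and 6.17, too low to read a direction.

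**Figure D5:**
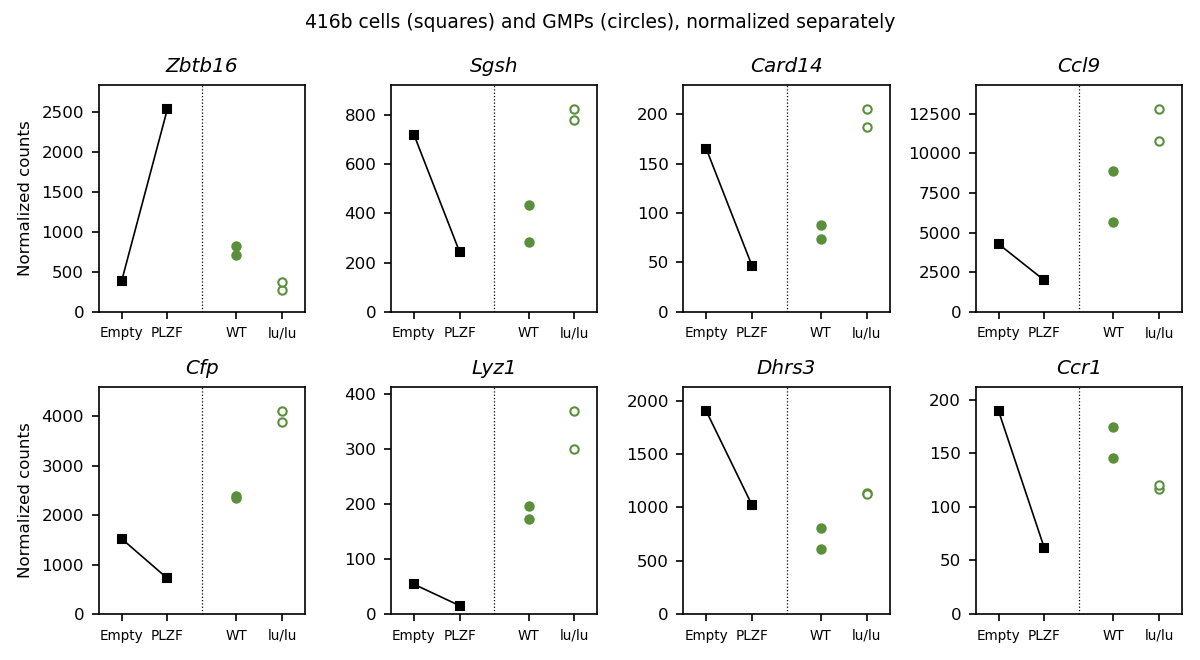
Normalized counts of 8 genes in 416b cells (squares, 1 library each, joined by a line) and in GMPs (circles, 2 columns per genotype, filled for WT and open for Zbtb16lu/lu), with vertical axes from 0 and the cell types normalized separately. Sgsh, Card14, Ccl9, Cfp, Lyz1 and Dhrs3 are lower with PLZF in 416b cells and higher in both Zbtb16lu/lu columns, whereas Ccr1 is lower in both comparisons.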

How the data were processed

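RNA-seq of 416b cells (1 library per condition) and GMPs (2 columns per genotype) was used. Per the labels and methods, the authors aligned reads to mm10 with Subread, counted them with featureCounts of the same package (1.5.0) and divided counts by DESeq2 size factors; the deposited values are this normalized signal. Their log2, fold change and p-value columns were not used. Whole reads (within 0.02) were recovered for 84.8% of Empty vector and 85.5% of PLZF-Flag values; the others held fractions.

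Log2 ratios used a pseudocount of 1 and genes with a mean of at least 10. Intervals were checked on simulated data. Named were the 30 genes with the highest lower and the 30 with the lowest upper bound among genes with at least 20 reads, the 5 highest and lowest ratios at a mean of at least 1000, and up to 4 members each way of 40 gene lists. Genes and lists were chosen with earlier results of these data known. In GMPs, 82 symbols on several rows were left out. Positions matched for 11507 genes (RefSeq). Other scalings, pseudocounts and filters were tried. Python 3.11.15, scipy 1.17.1 and pandas 2.3.3 were used. Some genes that the naming rule selects are not reported here.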

Additional observations from a re-analysis of the deposited data

How the results depend on the processing

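With a pseudocount of 10 in place of 1, 18 genes were higher and 33 lower by 2-fold or more in 416b cells, and the SD of the ratio was 0.22. With no filter on low values these were 285, 265 and 0.40, and with a mean of at least 100 they were 4, 11 and 0.16. A pseudocount of 0.1 gave an SD of 0.28 and the restriction to genes with whole reads an SD of 0.29. The SD under the other settings was unchanged at 2 decimals. Muc1 was at 2.92 with a pseudocount of 10. Equal library totals and a trimmed mean moved all ratios by less than 0.01. Ratios rose with the GC content of the transcript, from a median of -0.05 in the lowest of 10 classes to 0.05 in the highest; centring within these classes, chosen after seeing the data, left the chemokine median at -0.60, the interferon median at -0.26 and the erythroid median at 0.24. In GMPs, leaving out a column in turn gave medians from -0.14 to 0.12 for the 30 genes higher in 416b cells, whose sign thus depended on 1 column of either genotype (0.12 without WT column 1, 0.09 without Zbtb16lu/lu column 2), and from 0.17 to 0.33 for the lower genes. Over the column of each genotype whose names share a number, also chosen after seeing the data, the latter median was 0.42, and over the other columns 0.15. No paired analysis was possible because 416b cells had 1 library per condition. Depth limits genes of few reads: between means of 10 and 30, counting error alone gives an SD of 0.56.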

Other observations

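Chaperone and Polycomb genes showed small ratios in 416b cells, more often above 0 than below. Of 53 replication-dependent histone genes 16 were above 0 and 37 below (1 interval above 0, 6 below, median -0.30). These 53 genes summed to only 4482 normalized counts in Empty vector and 3954 in PLZF-Flag, so their median rests on low values. The 42 histone acetylation genes had 9 intervals above 0 and 8 below. Of 22 heat shock and chaperone genes, 13 had an interval above 0 and 3 below, with a median log2 ratio of 0.06. The shares over all genes (16.1% and 15.9%) include genes of few reads, whereas these 22 summed to 416170 normalized counts in Empty vector. The 80 ribosomal protein genes, also abundant, had 28 intervals above 0 and 21 below at a median of 0.01. Dnajb1, an HSP70 cochaperone, was at 0.17 and Stip1, which links HSP70 and HSP90, at 0.13. Of 45 Polycomb and histone methylation genes, 14 intervals lay above 0 and 3 below, and ratios were above 0 for 26 and below 0 for 19, with Jarid2, a cofactor of Polycomb repressive complex 2, at 2026 and 2503 normalized counts (0.30), and Bmi1 of the other main complex at 3605 and 3153 (-0.19). Id2, an inhibitor of basic helix-loop-helix factors on the list of reported PLZF targets, had 251 and 147 (-0.77, -1.11 to -0.44), while the 14 measured genes of that list had a median of 0.05. Runx2, an osteoblast and myeloid factor, had 299 and 193 (-0.63, -0.93 to -0.34), and Cd53, a leukocyte tetraspanin, had 171 and 101 (-0.76, -1.18 to -0.36).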
